A study of Homo sapiens with 3 samples.

Results

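The Frizzled genes, FZD1 to FZD10, encode the cell-surface receptors of the Wnt proteins. They were taken by name from the deposited gene values, where all 10 members were found among 23284 gene names. The values come from RNA-seq of 293T, a line of human embryonic kidney origin that carries the SV40 large T antigen, in which dCas9-VP64 was expressed together with a mock sgRNA vector, sgL1ASP #1 or sgL1ASP #3. dCas9-VP64 is a Cas9 that binds DNA without cutting it, joined to a transcriptional activator, and the guides direct it to the antisense promoter of LINE-1 (L1) elements. The expression was transient in 293T cells, all 3 libraries carry dCas9-VP64, and the mock vector is the empty guide vector, so the libraries differ in the guide. The methods name no selection of transfected cells and no time of RNA extraction.

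There was 1 library per condition. No difference between conditions therefore has a replicate check, no test across conditions was possible, and every ratio below compares libraries and not conditions. Levels are FPKM, fragment numbers scaled to the length of the transcript and to the size of the library. They can be compared between genes only as far as the transcript lengths used hold. These lengths are not given in the sources used here. The depth, estimated from the spacing of the lowest values, was about 10440000 reads in mock, 10310000 with sgL1ASP #1 and 8680000 with sgL1ASP #3. In these bulk samples, fewer cells with a transcript and less of the transcript per cell cannot be told apart. Of the 7 genes listed as usual for HEK293 lines, such as vimentin and the keratins KRT8 and KRT18, 6 had a mean FPKM of at least 1. The summed level of all 7 was 981 to 1079 in the 3 libraries. Most of it was vimentin, at 807 to 904, and NEFM was at 5.77 to 6.02. PAX2, the remaining one, had FPKM 0.522 to 0.658. Of 12 defining genes of other cell types, 10 were under FPKM 1 in every library and 3 of these were listed at 0 throughout. The astrocyte gene GFAP had FPKM 0.767 to 1.21. L1 transcripts are not among the gene names, so the activity of the targeted promoter was not measured here.

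Frizzled proteins cross the membrane repeatedly and hold an extracellular cysteine-rich domain that binds the lipid of a Wnt protein. With the co-receptors LRP5 and LRP6 they recruit Dishevelled, which stops the destruction complex from degrading beta-catenin, so that TCF and LEF factors switch on target genes. Frizzled receptors also act without beta-catenin, in planar cell polarity and in axon guidance. Human embryonic kidney cells are widely used to measure Wnt signalling, because they carry much of the pathway.

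The family falls into groups by sequence. Among the translated coding sequences of the canonical transcripts, FZD1 and FZD2 shared 80.7% identical residues, FZD1 and FZD7 79.6%, and FZD2 and FZD7 79.6%. FZD5 and FZD8 shared 71.3%, FZD9 and FZD10 64.7%, and FZD3 and FZD6 53.8%. FZD4 was nearest to FZD10, with 54.0%. The lowest identity was 33.8%, between FZD3 and FZD8.

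Behind the last membrane passage, Frizzled receptors carry a short stretch with lysine, threonine and tryptophan that binds the PDZ domain of Dishevelled. A search of the translated coding sequences (lysine and threonine, any 3 residues, then tryptophan) found it 1 time in each of the 10 members. It is shown because it joins all members to the rest of the pathway whatever their level. The coding strand is given 5′ to 3′ from GRCh37 (hg19) with the GENCODE 44 gene models, and capitals mark the lysine, threonine and tryptophan codons. FZD3 and FZD6 were searched but are not printed.
FZD1, chr7:90896062-90896091, plus strand: tccggcAAGACCctcaactccTGGaggaag
FZD2, chr17:42636677-42636706, plus strand: tcgggcAAGACGctgcactcgTGGaggaag
FZD7, chr2:202901018-202901047, plus strand: tcgggcAAGACCctgcagtcgTGGcgccgc
FZD5, chr2:208631868-208631897, minus strand: tcgggcAAGACGgtggagtcgTGGcggcgt
FZD8, chr10:35928513-35928542, minus strand: tccggcAAGACGctggagtccTGGcgctcc
FZD4, chr11:86662280-86662309, minus strand: tctgccAAAACTcttcacacgTGGcagaag
FZD9, chr7:72849925-72849954, plus strand: agctccAAGACTttccagaccTGGcagagc
FZD10, chr12:130649057-130649086, plus strand: acctccAAGACTctgcagtccTGGcagcag
Among the 8 printed, only FZD4 spells the lysine as AAA, and the others use AAG. Counted from the start codon, the stretch begins at residue 552 of 574 in FZD7 but at residue 608 of 694 in FZD8. The tail behind it thus differs in length between members.

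All 10 Frizzled genes were above FPKM 1 in every library. The levels ran from FZD7 at the top to FZD3 and FZD10 at the bottom, and the same pair, FZD7 and FZD6, led in each library. FZD7 made up 22.8 to 24.97% of the summed Frizzled FPKM and FZD6 18.4 to 21.6%. Among genes with FPKM above 0 in mock, FZD7 stood at the 66.5 percentile and FZD10 at the 28.9 percentile, with the others between them.

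**Figure D1:**
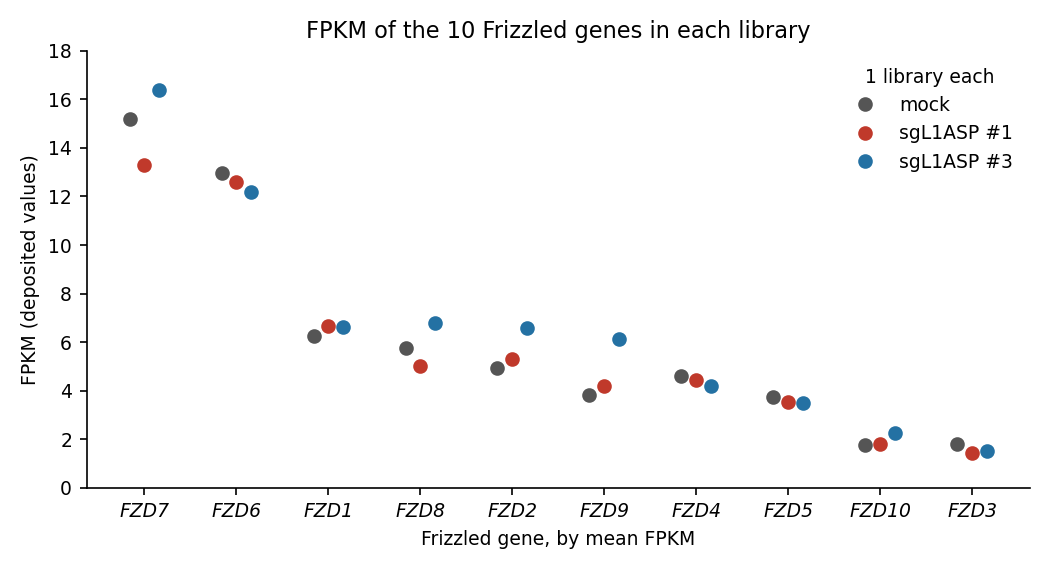
FPKM (vertical axis, from 0) of each Frizzled gene (horizontal axis, by mean FPKM), with 1 point per library and no error bars because each condition has 1 library. FZD7 and FZD6 lie between 12.2 and 16.4, and the other 8 genes lie under 7, with FZD9 in sgL1ASP #3 at 6.12 against 3.83 in mock.

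FZD7, a receptor known from stem and progenitor cells, had FPKM 15.2 in mock, 13.3 with sgL1ASP #1 and 16.4 with sgL1ASP #3. FZD6, which acts in planar cell polarity, had FPKM 12.96, 12.6 and 12.2 in the same order. The lowest FZD7 value, 13.3, was above the highest FZD6 value, so the order of this pair was the same in every library, and both stood apart from the rest.

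FZD1, of the same sequence group as FZD2 and FZD7, had FPKM 6.27 in mock, 6.68 with sgL1ASP #1 and 6.61 with sgL1ASP #3. FZD8, a relative of FZD5 that signals through beta-catenin, had FPKM 5.75, 5.02 and 6.81. FZD2, a receptor for WNT5A among others, had FPKM 4.93, 5.29 and 6.56. The ranges of FZD1, FZD8 and FZD2 over the 3 libraries overlapped, and FZD8 and FZD2 were highest in sgL1ASP #3. FZD9, which lies in the region deleted in Williams syndrome, had FPKM 3.83 in mock, 4.20 with sgL1ASP #1 and 6.12 with sgL1ASP #3. Its range overlapped with that of FZD2 above it and FZD4 below it.

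FZD4, the receptor of Norrin in retinal vessels, had FPKM 4.62 in mock, 4.44 with sgL1ASP #1 and 4.17 with sgL1ASP #3. FZD5 had FPKM 3.76, 3.53 and 3.48. These 2 genes, like FZD6, were highest in mock and lowest in sgL1ASP #3, and the FZD5 range lay below the FZD4 range. FZD10, a receptor found in few adult tissues, had FPKM 1.76 in mock, 1.79 with sgL1ASP #1 and 2.27 with sgL1ASP #3. FZD3, which guides axons, had FPKM 1.79, 1.45 and 1.53. FZD10 and FZD3 overlapped with each other, and FZD10 lay below FZD5 in every library.

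Summed over the sequence groups, FZD1, FZD2 and FZD7 held 43.4% of the family's FPKM in mock, 43.4% with sgL1ASP #1 and 44.7% with sgL1ASP #3. FZD3 and FZD6 held 24.2%, 24.1% and 20.7%. FZD4, FZD9 and FZD10 held 16.8%, 17.9% and 19.01%, and FZD5 and FZD8 held 15.6%, 14.7% and 15.6%. The makeup of the receptor family was thus similar in the 3 libraries, with the lower share of FZD3 and FZD6 in sgL1ASP #3 as the largest shift.

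The family as a whole was compared next. The summed Frizzled FPKM was 60.9 in mock, 58.3 with sgL1ASP #1 and 66.1 with sgL1ASP #3, a log2 ratio to mock of -0.062 with sgL1ASP #1 and 0.12 with sgL1ASP #3. The sign with sgL1ASP #3 depended on the scaling, since the log2 ratio was -0.00074 after all libraries were brought to 1 common FPKM sum (rescaling to the sum). The median log2 ratio of the 10 members was -0.050 with sgL1ASP #1 and 0.091 with sgL1ASP #3, against 0.0010 and 0.0019 over all genes with a mean FPKM of at least 1. With the same rescaling the medians of all these genes were -0.093 and -0.12, and those of the Frizzled genes -0.14 and -0.028.

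With sgL1ASP #1, 0 of the 10 members differed from mock by more than 1.5-fold, the ratio used in the study. Of all 12727 genes with a mean FPKM of at least 1 and a value above 0 in both libraries, 3.23% did so, 1.56% on the higher side and 1.67% on the lower side. All 10 members passed this filter in each comparison. FPKM was higher than in mock for FZD1, FZD2, FZD9 and FZD10 and lower for the other 6, and the signs of FZD1 and FZD10 turned with rescaling to the sum. The log2 ratios ran from -0.30 in FZD3 to 0.13 in FZD9. Their median size of 0.096 was close to the 0.094 of all genes, which were not matched for level. FZD7, with about 697 reads in mock and 602 in sgL1ASP #1, had a log2 ratio of -0.19, with a standard error of 0.080 from read counting only.

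With sgL1ASP #3, FZD9 exceeded 1.5-fold, with 0 members on the lower side. Over all genes, 3.48% differed, 1.64% being higher and 1.84% lower by more than 1.5-fold, and the Frizzled count rests on 1 gene. The FZD9 ratio was 1.60, a log2 ratio of 0.67 with a standard error of 0.21 from counting alone at about 86 reads in mock and 114 in sgL1ASP #3. FZD9 was no longer past 1.5-fold with rescaling to the sum, where its log2 ratio was 0.55, or with a pseudocount of 1, where it was 0.56. FZD2 had a log2 ratio of 0.41 with a counting error of 0.15, FZD10 of 0.36 with 0.27 and FZD8 of 0.24 with 0.13. FZD7 and FZD1 were at 0.11 and 0.075, both of which turned negative with rescaling to the sum. FZD3, FZD4, FZD5 and FZD6 were lower than in mock, with log2 ratios of -0.22, -0.15, -0.11 and -0.089. The median size of the 10 log2 ratios was 0.18, against 0.095 over all genes, which were not matched for level. Ratios spread more widely among the 6933 other genes with a mean FPKM from 1 to 20, the range that holds all members. Their 5th and 95th percentiles were -0.41 and 0.38, against -0.32 and 0.30 for 10964 other genes of all levels past the filter. Both sets hold only genes for which a transcript GC content was found. Over all 12718 genes past the filter the percentiles were -0.34 and 0.32.

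**Figure D2:**
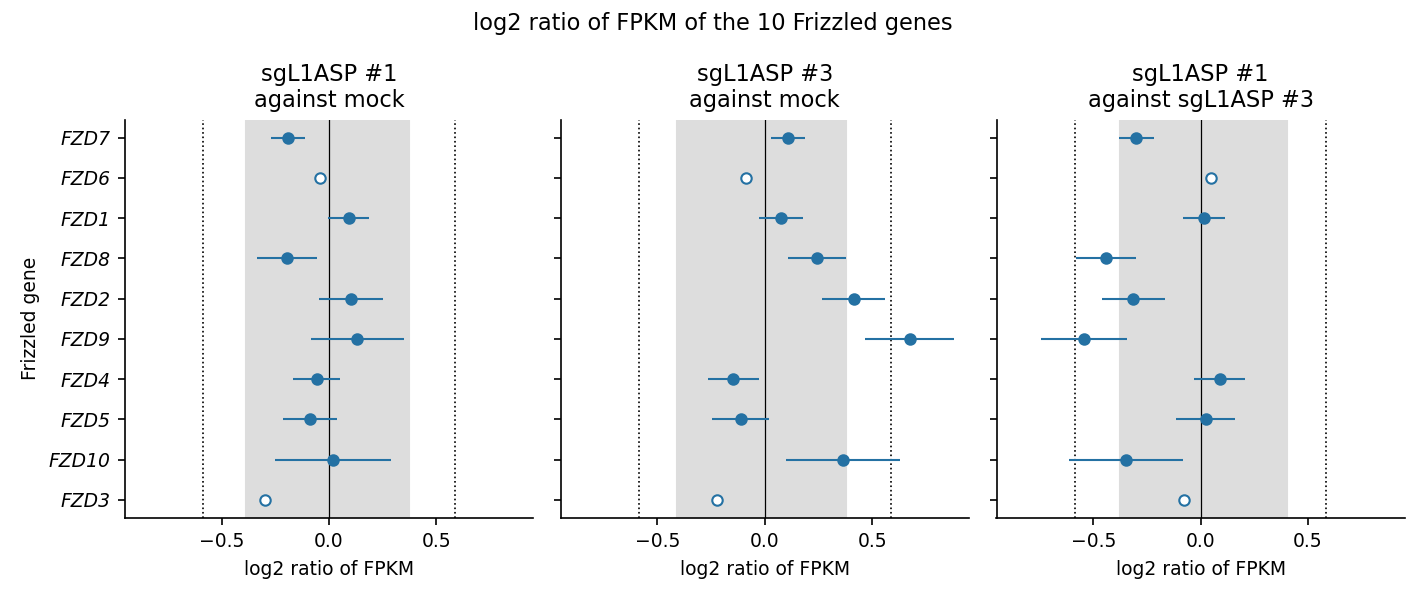
log2 ratio of FPKM (horizontal axis) of each Frizzled gene (vertical axis, by mean FPKM) in the 3 pairs of libraries. Bars are 1 standard error from counting at the estimated depth, and open points (FZD3, FZD6) have no estimate because their transcripts differ in length. Dotted lines mark 1.5-fold. The grey band spans the 5th to 95th percentile of the other genes with mean FPKM from 1 to 20 and a known GC content. FZD9 lies beyond the upper dotted line in sgL1ASP #3 against mock, at 0.67, and FZD8 and FZD9 lie below the band in sgL1ASP #1 against sgL1ASP #3.

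The guides were also set against each other, since the study selected genes over both steps, from mock to sgL1ASP #3 and on to sgL1ASP #1. Between sgL1ASP #1 and sgL1ASP #3, 0 of 10 members differed by more than 1.5-fold, where 3.34% of all genes did, 1.67% being higher and 1.67% lower. FPKM was lower in sgL1ASP #1 for FZD9, with a log2 ratio of -0.54, for FZD8 with -0.44, for FZD10 with -0.35, for FZD2 with -0.31 and for FZD7 with -0.30. The standard errors from counting were 0.20, 0.14, 0.27, 0.14 and 0.082 in the same order. FZD1, FZD3, FZD4, FZD5 and FZD6 lay between -0.076 and 0.089. The signs of all 10 ratios were the same with either rescaling. A rescaling moves all 10 by the same small amount, however. FZD3, the negative ratio nearest to 0, went from -0.076 to -0.050 with rescaling to the sum. A pseudocount added to both values cannot turn a sign. Neither is therefore much of a check here. This comparison shares the sgL1ASP #3 library with the one above, so the pair are not separate evidence. A stepwise rule after that of the study was applied to genes past the filter. It asks that sgL1ASP #3 exceed mock by over 1.5-fold and that sgL1ASP #1 exceed sgL1ASP #3 by over 1.5-fold. The methods of the study name both steps at over 1.5-fold. Whether the study required both of each gene, and how it filtered genes, is not given in the sources used here. The stepwise rule held for 0 of 10 Frizzled genes and for 9 of the 12701 genes past the filter (0.0709%). That is fewer genes than the study reported, so the rule as applied here does not return the study's list. Only FZD1 was highest in sgL1ASP #1.

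The 5 members with the lowest ratios of sgL1ASP #1 to sgL1ASP #3 also shared a property of their transcripts, which FZD3, the remaining member with a ratio below 1, did not have. This was noticed after the ratios were seen. FZD2, FZD7, FZD8, FZD9 and FZD10 have canonical transcripts with a GC content of 55.8 to 68.5%, and those of FZD1, FZD3, FZD4, FZD5 and FZD6 have 34.9 to 51.3%. The GC-rich transcripts are also short, with 2343 to 4587 bases in 1 exon. Those of FZD1, FZD3, FZD4 and FZD5 have 6894 to 13770 bases, and that of FZD6 has 3728. GC content and length therefore largely go together over these 10 genes and cannot be told apart here. The GC-rich members together had FPKM 31.5 in mock, 29.6 with sgL1ASP #1 and 38.1 with sgL1ASP #3. The other 5 together had 29.4, 28.7 and 28.0. Over the 10 members, GC content and the log2 ratio of sgL1ASP #3 to mock had a Pearson correlation of 0.85 and a Spearman correlation of 0.85, given as a description over 10 genes of the same libraries. For sgL1ASP #1 to mock these were 0.36 and 0.32.

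Over all genes the ratios differed with GC content in the same direction and by less. Genes with a transcript GC content of at least 60%, 1815 besides the members, had a median log2 ratio of 0.039 in sgL1ASP #3 to mock and -0.023 in sgL1ASP #1 to sgL1ASP #3. Genes under 40%, 1826 in number, had medians of -0.015 and 0.0091, although the lowest class, from 30 to 35%, was at 0.023 and -0.015. Among the 2085 other genes with GC content of at least 55% and mean FPKM from 1 to 20, 10.6% had a log2 ratio of sgL1ASP #1 to sgL1ASP #3 as low as that of FZD7 or lower. FZD7 had the highest ratio of the GC-rich members, which were grouped after these ratios were seen. The share is therefore a description only. When each ratio was set against the median of the genes in the same class of GC content, FZD9 in sgL1ASP #3 to mock was 0.62 in place of 0.67, and 0 of the 30 ratios changed sign. The parts of GC content and of transcript length in the Frizzled ratios were not tested.

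**Figure D3:**
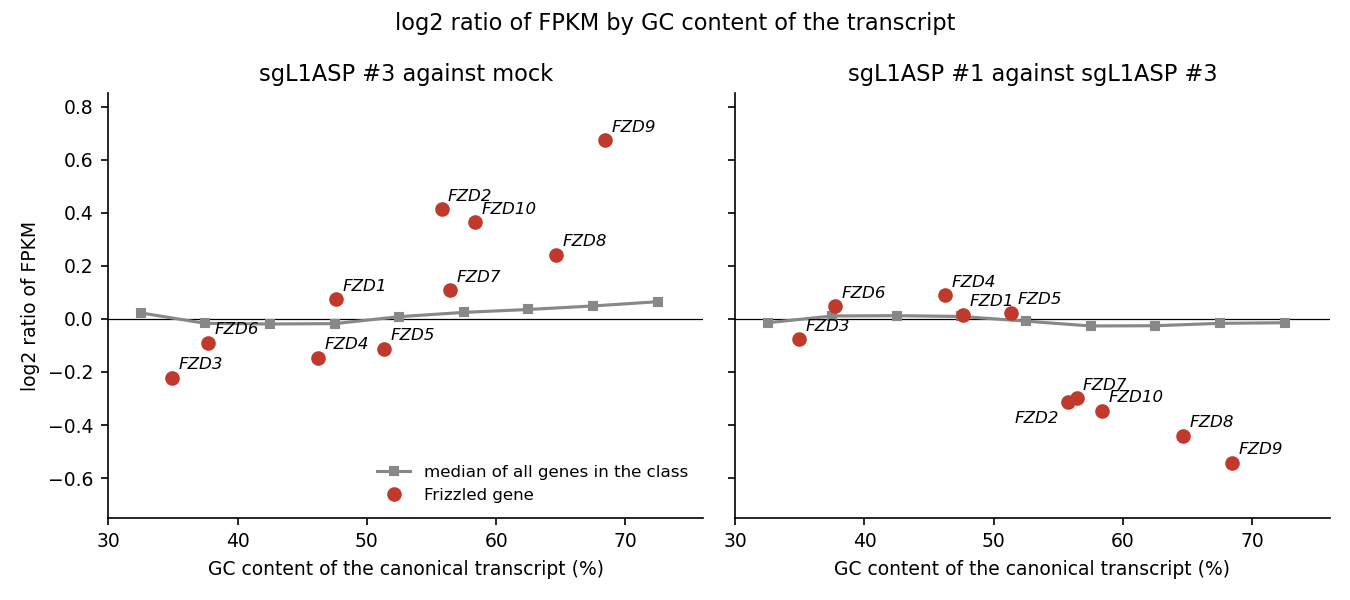
log2 ratio of FPKM (vertical axis) against the GC content of the canonical transcript (horizontal axis, in percent) for sgL1ASP #3 to mock and for sgL1ASP #1 to sgL1ASP #3. Red points are the 10 Frizzled genes and grey squares the median of all genes in classes of 5 percentage points. The 5 members from 55.8% upward lie at -0.30 or below in the right panel, where the grey medians stay between -0.026 and 0.012.

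The gene models bear on how well each value is separated from others. FZD1, FZD2, FZD7, FZD8, FZD9 and FZD10 have their canonical transcript in 1 exon, FZD4 and FZD5 in 2, FZD6 in 7 and FZD3 in 8. On GRCh37, FZD7 lies on chromosome 2 from 202898578 to 202903164, FZD9 on chromosome 7 from 72848108 to 72850450, FZD2 on chromosome 17 from 42634852 to 42638630 and FZD8 on chromosome 10 from 35927175 to 35931224. FZD10 lies on chromosome 12 from 130647004 to 130650285 and FZD6 on chromosome 8 from 104310661 to 104345094. The 201 other protein-coding genes with 1 exon and a mean FPKM of at least 1 had a median log2 ratio of 0.040 in sgL1ASP #3 to mock. Of them, 1.99% were higher and 0.995% lower by more than 1.5-fold. The 91 of these genes with a transcript GC content of at least 55% had a median of 0.070 and a 95th percentile of 0.37. Of these 91, 0% were higher and 2.2% lower by more than 1.5-fold.

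Stretches of 75 bases, the read length, were compared with the transcripts of all other genes. For FZD4, FZD5, FZD6, FZD7, FZD9 and FZD10, 0 such stretches occur elsewhere. FZD1 and FZD2 share 7 with each other, 0.103% of the FZD1 stretches, FZD3 shares 1 with CTRC, and the 7 of FZD8 lie in MIR4683, a microRNA gene inside FZD8. The close relatives therefore share almost no exact 75-base stretch with each other or with other annotated transcripts. Near matches and copies in the genome outside annotated transcripts were not examined. PRSS23, a protease gene, overlaps FZD4 on the opposite strand, and the authors counted by strand. In the RefSeq promoters on GRCh38.p14 (windows around the transcription start), which were found for FZD1, FZD4, FZD5, FZD8 and FZD9, GC content was 65.7 to 79.7% and the number of CG pairs 25 to 40. The medians of all 27305 promoters were 58.3% and 14.

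The rest of the Wnt pathway was followed through lists of 92 genes, of which 61 had a mean FPKM of at least 1 and a value in every library. With sgL1ASP #1, 2 of the 61 were more than 1.5-fold higher than in mock and 0 were lower, or 3.28% against 3.23% of all genes. With sgL1ASP #3, 1 was higher and 1 lower, or 3.28% against 3.48%. Between the guides 1 gene was higher in sgL1ASP #1 and 0 were lower, or 1.64% against 3.34%. At these shares of all genes, lists as short as those below would hold few or none, so counts of 0 there say little. The median log2 ratio of the 61 was -0.031 with sgL1ASP #1 and -0.0023 with sgL1ASP #3.

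The ligands were low. Of 20 genes, 7 passed a mean FPKM of 1, 12 were under 1 in every library, and WNT1 was listed at 0 throughout. The highest was WNT11, which acts mostly without beta-catenin, with FPKM 4.93 in mock, 4.99 with sgL1ASP #1 and 5.20 with sgL1ASP #3. WNT3, a ligand of the beta-catenin pathway, had 3.55, 4.12 and 4.001, and WNT5A, a ligand of planar cell polarity, had 3.65, 2.89 and 3.24. WNT9A, named after its values were seen, was the ligand past 1.5-fold with sgL1ASP #1, with FPKM 0.830 in mock and 1.77 in sgL1ASP #1, and 1.22 in sgL1ASP #3. Norrin, the ligand of FZD4 encoded by NDP, had FPKM 0.054 in sgL1ASP #1 and was listed at 0 in the other libraries. In contrast, WLS, which carries Wnt proteins to the surface, was at FPKM 98.4, 96.2 and 101.8, and the Wnt acyltransferase PORCN at 11.8, 13.6 and 15.6.

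**Figure D4:**
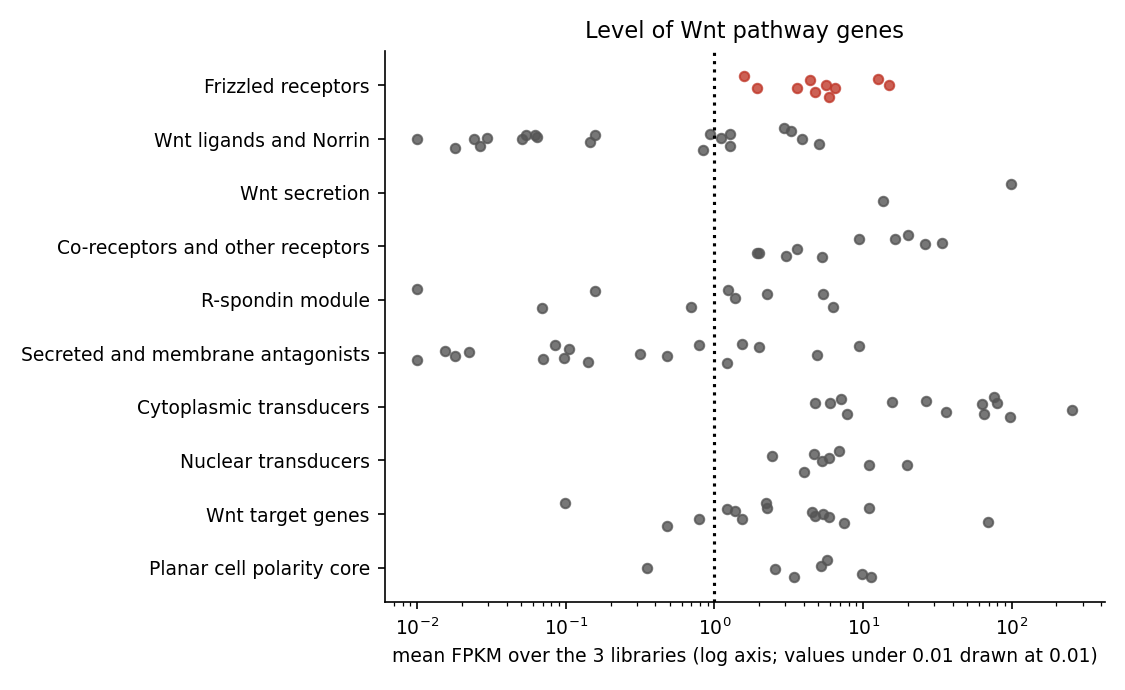
Mean FPKM over the 3 libraries (horizontal axis, log scale, values under 0.01 drawn at 0.01) of the genes in each Wnt pathway list (vertical axis), with 1 point per gene, Frizzled genes in red and a dotted line at FPKM 1. All 10 Frizzled genes lie to the right of the line, as do all 13 cytoplasmic transducers, against 7 of 20 ligands and 5 of 17 antagonists.

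The receptors that work with Frizzled were present. All 10 co-receptors and other receptors had a mean FPKM of at least 1, with 0 past 1.5-fold with either guide. PTK7, a planar cell polarity receptor, had FPKM 33.7 in mock, 33.9 with sgL1ASP #1 and 34.9 with sgL1ASP #3. The kinase-like Wnt receptor RYK had 23.4, 26.9 and 27.5, and the co-receptor LRP5 had 19.4, 19.6 and 21.2. Of the 9 genes of the R-spondin module, which sets how much Frizzled stays at the surface, 5 passed the filter and 0 passed 1.5-fold. The R-spondin receptor LGR4 had FPKM 5.99, 6.64 and 6.32, and ZNRF3, a ubiquitin ligase that removes Frizzled from the membrane, had 5.80, 5.33 and 5.08. LGR5, a stem cell receptor of R-spondins, had 2.39, 2.13 and 2.23.

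Of 17 antagonists, 5 passed the filter. KREMEN1, a receptor of DKK proteins, had FPKM 9.18, 9.31 and 9.58 in mock, sgL1ASP #1 and sgL1ASP #3. Its relative KREMEN2 had 5.66, 5.47 and 3.49 and was the gene more than 1.5-fold lower with sgL1ASP #3, as well as the gene more than 1.5-fold higher in sgL1ASP #1 than in sgL1ASP #3. DKK3 had 2.13, 2.24 and 1.64.

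Inside the cell, all 13 cytoplasmic transducers passed the filter and 0 passed 1.5-fold. The casein kinase genes CSNK1E and CSNK1D had FPKM 251.9, 251.6 and 259.9, and 98.8, 96.3 and 98.7. CTNNB1, which encodes beta-catenin, had FPKM 77.8 in mock, 76.2 with sgL1ASP #1 and 83.9 with sgL1ASP #3. All 8 nuclear transducers passed as well. The co-activator gene PYGO2 had FPKM 20.9, 18.8 and 19.3, TCF7L1 had 6.50, 7.43 and 6.59, and PYGO1, named after its values were seen, was the gene more than 1.5-fold higher with sgL1ASP #3, with FPKM 3.53 in mock, 4.77 with sgL1ASP #1 and 5.66 with sgL1ASP #3.

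Genes that Wnt and beta-catenin induce in many tissues were followed as a list of targets, and whether they depend on Wnt in these cells was not tested. Of 15, 12 passed the filter, 5 of them were higher than in mock with sgL1ASP #1 and 4 with sgL1ASP #3, and their median log2 ratios were -0.066 and -0.031. AXIN2, the most widely used target, had FPKM 4.87 in mock, 4.91 with sgL1ASP #1 and 4.47 with sgL1ASP #3. LEF1 had 10.9, 10.6 and 11.5, MYC had 69.4, 71.3 and 68.0, and CCND1, the cyclin D1 gene, had 7.60, 7.16 and 7.43. NKD2, a feedback inhibitor named after its values were seen, was past 1.5-fold with sgL1ASP #1, with FPKM 3.29 in mock and 5.70 in sgL1ASP #1, and 4.54 in sgL1ASP #3. The target list shares 9 genes with the lists above, LEF1 and AXIN2 among them.

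Of the 7 core planar cell polarity genes, 6 passed the filter and 0 passed 1.5-fold. VANGL2 had FPKM 12.4, 11.2 and 10.4, CELSR2 had 9.67, 9.53 and 10.3, and CELSR3 had 5.86, 5.65 and 5.58.

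A pattern over 3 libraries singles out few genes. The genes nearest to FZD7 in the log2 ratios to mock were CCDC107, AHCYL2 and RAB3D, at distances of 0.0023, 0.0066 and 0.0091. Within 0.05 of FZD7 on both ratios lay 101 of 12700 genes, so the nearest names carry little weight.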

How the data were processed

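Total RNA of 293T cells was made into TruSeq stranded mRNA libraries and sequenced in 75-base single-end mode. The authors mapped the reads to hg19 with TopHat2 2.0.13, Bowtie2 2.2.3 and SAMtools 0.1.19, and the deposited FPKM per gene come from Cuffdiff (Cufflinks 2.2.1) in first-strand mode. The gene annotation and the scaling between libraries are not given in the sources used here.

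FPKM were used as deposited, and 0 value columns belonged to no sample. Samples were grouped by the labels, with 1 library each. Ratios were taken without a pseudocount among genes with a mean FPKM of at least 1 and FPKM above 0 in both libraries, and 1.5-fold was the threshold. With 1 library per condition no test was made. Named genes are the members, the 3 genes with the highest mean FPKM in each list, any gene past 1.5-fold on the same side for each guide, AXIN2 and LEF1, and the 3 genes nearest in pattern to the highest member. Genes past 1.5-fold with 1 guide and other genes named outside this rule were chosen after their values were seen. The members and lists were chosen with earlier results of these data known.

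The relative depth came from the commonest ratio of values under FPKM 0.3, which was 1.013 for sgL1ASP #1 to mock in 342 of 1476 genes and 1.203 for sgL1ASP #3 to mock in 326 of 1404. The depth came from genes with 1 transcript longer than 1000 bases, taking a fragment of 200 bases from the length, and the peak that gives it holds 29, 45 and 35 genes in mock, sgL1ASP #1 and sgL1ASP #3. Read numbers and their errors are estimates from GENCODE 44 lengths and cover counting error only. GPR124 stood for ADGRA2. The values of 1 of the 12 genes of other cell types are not reported here. GC content was found for 10974 of 12701 genes. Python 3.11.15, NumPy 2.4.6, pandas 2.3.3, Biopython 1.88 and matplotlib 3.10.9 were used. The alternatives were pseudocounts of 0.1 and 1, no filter, a 2-fold threshold, rescaling to the median ratio of genes, rescaling to a common FPKM sum and, added after the data were seen, centring by GC content.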

Additional observations from a re-analysis of the deposited data

How the results depend on the processing

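No paired analysis was possible because there is 1 library per condition. Log2 ratios were taken as moved beyond a 1.5-fold shift, counts beyond 1.5 times. The largest shift of a member's log2 ratio was 0.12, with a pseudocount of 1 and with rescaling to the common FPKM sum, and 0.049 with centring by GC content. The number of Frizzled genes more than 1.5-fold higher with sgL1ASP #3 than in mock was 1, and 0 with a pseudocount of 1, with the 2-fold threshold and with rescaling to a sum of 1000000. The other Frizzled counts stayed at 0 under each setting tried. Pseudocounts and the 2-fold threshold can only lower a count, and every member passed the filter. The rescalings and the centring by GC content made small shifts. FZD9 in sgL1ASP #1 against sgL1ASP #3 was nearest to 1.5-fold among the ratios not past it. Its log2 ratio of -0.54 became -0.52 with rescaling to the sum and -0.53 with centring, away from the threshold. The unchanged counts of 0 are therefore little of a check. Of the other pathway genes, 2 were higher and 0 lower with sgL1ASP #1. These were 8 and 1 of 78 genes with no filter, 1 higher at 2-fold, and 1 lower after rescaling to the sum. With sgL1ASP #3, 1 was higher and 1 lower. These were 3 and 6 of 79 genes with no filter, 0 and 0 with a pseudocount of 1 or at 2-fold, and 0 and 2 after rescaling to the sum. In sgL1ASP #1 against sgL1ASP #3, 1 was higher. This was 6 of 77 genes with no filter, 0 with a pseudocount of 1 or at 2-fold, and 2 after rescaling to the sum. The share over all genes is given only at the main setting, so the Frizzled and pathway counts at other settings have none beside them. With no filter, genes of a few reads enter. For the other moves the cause was not tested. Among the 8 members with an estimate, FZD10 had the fewest reads, about 57 in mock.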
